A study of Mus musculus with 13 samples.

Results

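Transcripts of 9 digestive enzymes of the intestinal brush border were followed through 13 RNA-seq libraries of mouse small intestine with and without loss of Apc. The 9 genes were chosen by name out of 24054 genes in the count tables: the disaccharidases Sis, Lct, Mgam and Treh, and the peptidases Anpep, Dpp4, Ace, Enpep and Mep1a. Their proteins sit on the microvilli of absorptive enterocytes and carry out the last step of digestion. Disaccharidases split sugars into monosaccharides, and peptidases trim short peptides into amino acids, dipeptides and tripeptides that the cell can take up. In the healthy epithelium these genes are turned on as cells leave the crypt and mature on the villus, where Wnt signalling is low. Apc belongs to the complex that marks beta-catenin for destruction, and its loss keeps Wnt signalling on.

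The design asks what Apc loss does in different cells of origin and in different settings. Adult mice of all 6 groups received 2 doses of 1 mg tamoxifen, which activates a CreERT2 recombinase where one is present. Secretory-driver animals (Sec-Cre) carried Atoh1CreERT2, active in the secretory lineage, and stem-cell-driver animals (ISC-Cre) carried Lgr5eGFP-CreERT2, active in intestinal stem cells (ISCs). Whole organoids grown from ileal crypts (labelled 10 dpi) came as Sec-Cre (genotype Atoh1CreERT2, Apcfl/fl and Rosa26tdTomato), ISC-Cre (Lgr5eGFP-CreERT2, Apcfl/fl and Rosa26tdTomato) and WT, whose genotype is given only as WT. Ileal ISCs sorted by flow cytometry (labelled 21 dpi) came as Sec-Cre (Atoh1CreERT2 with Apcfl/fl, Lgr5DTR-GFP and Rosa26tdTomato) and WT, which carried the same floxed Apc and reporter alleles without a Cre. Sorted duodenal ISCs (labelled 14 dpi) were ISC-Cre (Lgr5eGFP-CreERT2 with Apcfl/fl and Rosa26tdTomato). Regions follow the titles and sample characteristics. The extraction text names duodenum for every sample, a conflict that could not be settled here. The duodenal group had 3 libraries and each other group 2. The labels do not say whether libraries of a group come from different mice or cultures. The p-values therefore reflect variation among libraries that could be purely technical. Whole organoids and sorted fractions are mixtures, and fewer cells of a type cannot be told apart from less RNA per cell.

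Depth ranged from 11524335 to 45516228 gene counts per library. Apc itself was at 185 to 243 CPM (gene counts scaled to a common library total, with library sizes adjusted by TMM) in Apc-null organoids and at 139 to 156 CPM in WT organoids, but a count over a whole gene does not resolve a floxed exon and so does not check the labels. Both Sec-Cre ileal ISC libraries stood apart, with 57.0% and 35.8% of reads unmapped against 2.58% to 13.9% in the others, and in replicate 1 the 10 most abundant genes took 51.0% of counts. That replicate had a TMM factor of 0.352, so its levels depend on the scaling more than those of any other library. The 3 duodenal libraries had 98.5% to 98.9% of stranded gene counts on the second strand, against 48.4% to 51.1% elsewhere. Region, driver, reporter, sampling time, dissociation enzyme and library type therefore all differ between duodenal and ileal ISCs and cannot be told apart.

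On GRCm38 the disaccharidase genes lie at chr3:72888557-72967863 (Sis), chr1:128284756-128328318 (Lct), chr6:40628831-40769123 (Mgam) and chr9:44673233-44686305 (Treh). The peptidase genes lie at chr7:79821803-79861059 (Anpep), chr2:62330073-62412231 (Dpp4), chr11:105967945-105989964 (Ace), chr3:129269175-129332720 (Enpep) and chr17:43474324-43502812 (Mep1a). All 9 are annotated as protein-coding in GENCODE vM21. Treh, Dpp4, Ace and Enpep overlap a gene on the opposite strand (Phldb1, Gm13561, Gm11651 and Gm42628), and Anpep overlaps Gm44974 on its own strand. These overlaps are of whole gene spans and not of exons. Without strand, reads from sequence that opposite-strand genes share cannot be assigned to one of them. Strand does not separate Anpep from Gm44974. In the stranded duodenal libraries, the second-strand count of Ace was 108% of its unstranded count, and for the other 8 genes it was between 98.6% and 100%.

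Sis encodes sucrase-isomaltase, which splits sucrose and the branch points of starch, and it showed the widest swing of the 9 genes in organoids. It stood at 1991 and 1124 CPM in the WT organoids, at 5.53 and 4.81 CPM in the Sec-Cre organoids and at 4.72 and 3.71 CPM in the ISC-Cre organoids. The WT libraries lay far above all 4 Apc-null libraries. Its log2 change was -8.29 ± 0.36 (SE) in Sec-Cre organoids (edgeR quasi-likelihood test, adjusted p = 2.76e-05), with group means 301.3-fold apart, and -8.56 ± 0.37 in ISC-Cre organoids (edgeR adjusted p = 2.27e-05). Mgam encodes maltase-glucoamylase, which completes starch digestion beside sucrase-isomaltase. Its levels were 1626 and 1555 CPM in WT organoids, 268 and 328 CPM with Sec-Cre and 216 and 249 CPM with ISC-Cre. The Apc-null libraries were again all below WT. In all 4 of them Mgam was above Sis, also per kb of transcript, whereas in WT organoids Sis was above Mgam in replicate 1 and below it in replicate 2. Its log2 changes were -2.47 ± 0.15 and -2.81 ± 0.15 (edgeR adjusted p = 5.45e-05 and 3.43e-05).

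Lct, which encodes the milk sugar enzyme lactase, and Treh, which encodes trehalase, were low in organoids of every genotype. Lct was at 11.7 and 12.2 CPM in WT organoids, 0.211 and 0.592 CPM with Sec-Cre, and 0.520 and 0.238 CPM with ISC-Cre. Treh was at 13.01 and 16.1 CPM in WT organoids, 0.253 and 0.671 CPM with Sec-Cre, and 0.1999 and 0.190 CPM with ISC-Cre. No Apc-null library reached the WT range for either gene, although the Apc-null values rest on few reads: 20 and 18 counts over both libraries for Lct, and 23 and 9 for Treh. The log2 changes of Lct were -4.92 ± 0.61 in Sec-Cre and -4.97 ± 0.61 in ISC-Cre organoids, with edgeR adjusted p = 0.00108 and 0.000884. Those of Treh were -5.00 ± 0.52 and -6.21 ± 0.57 (edgeR adjusted p = 0.000514 and 0.000252).

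Among the peptidases, Enpep and Mep1a fell most in organoids. Enpep encodes glutamyl aminopeptidase (aminopeptidase A), which removes acidic residues from the N terminus of peptides. It stood at 125 and 142 CPM in WT organoids, 2.45 and 1.89 CPM with Sec-Cre, and 3.08 and 1.28 CPM with ISC-Cre, with a wide gap between WT and both Apc-null groups. Its log2 changes were -5.99 ± 0.38 and -5.94 ± 0.38 (edgeR adjusted p = 6.88e-05 and 6.05e-05). Mep1a encodes the alpha subunit of meprin, a zinc metalloprotease. Its CPM was 38.2 and 65.2 in WT organoids, 4.47 and 3.87 CPM with Sec-Cre, and 4.24 and 3.71 CPM with ISC-Cre, so the lowest WT library was still well above every Apc-null one. Its log2 changes were -3.68 ± 0.30 and -3.73 ± 0.31 (edgeR adjusted p = 0.000187 and 0.000152).

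Dpp4, Anpep and Ace moved less. Dpp4 encodes dipeptidyl peptidase 4, which removes dipeptides after proline or alanine and inactivates incretin hormones. Its CPM was 175 and 102 in WT organoids, 21.0 and 33.5 CPM with Sec-Cre, and 35.3 and 27.0 CPM with ISC-Cre. Both Apc-null groups lay below WT and overlapped each other, and the log2 changes were -2.40 ± 0.33 and -2.18 ± 0.33 (edgeR adjusted p = 0.00169 and 0.00204). Anpep encodes aminopeptidase N, the broad-range neutral aminopeptidase of the brush border. Its CPM was 108 and 79.3 in WT organoids, 35.5 and 52.3 CPM with Sec-Cre, and 48.1 and 35.6 CPM with ISC-Cre. The gap to WT was narrow, and the log2 changes were -1.14 ± 0.26 and -1.19 ± 0.26 (edgeR adjusted p = 0.0133 and 0.00984). The Sec-Cre call for Anpep was lost without Sec-Cre replicate 1 (edgeR adjusted p = 0.0746) or WT replicate 1 (0.0538), and the ISC-Cre call without ISC-Cre replicate 2 (0.0766). Ace encodes angiotensin-converting enzyme, a carboxydipeptidase that endothelial cells also make. Its CPM was 11.95 and 17.9 in WT organoids, 13.3 and 7.30 CPM with Sec-Cre, and 12.4 and 14.5 CPM with ISC-Cre. The 3 groups overlapped, and neither change passed the test (log2 -0.59 ± 0.34 and -0.19 ± 0.34, edgeR adjusted p = 0.224 and 0.690), the second turning to 0.015 with unscaled library totals and to 0.12 without WT replicate 2.

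**Figure D1:**
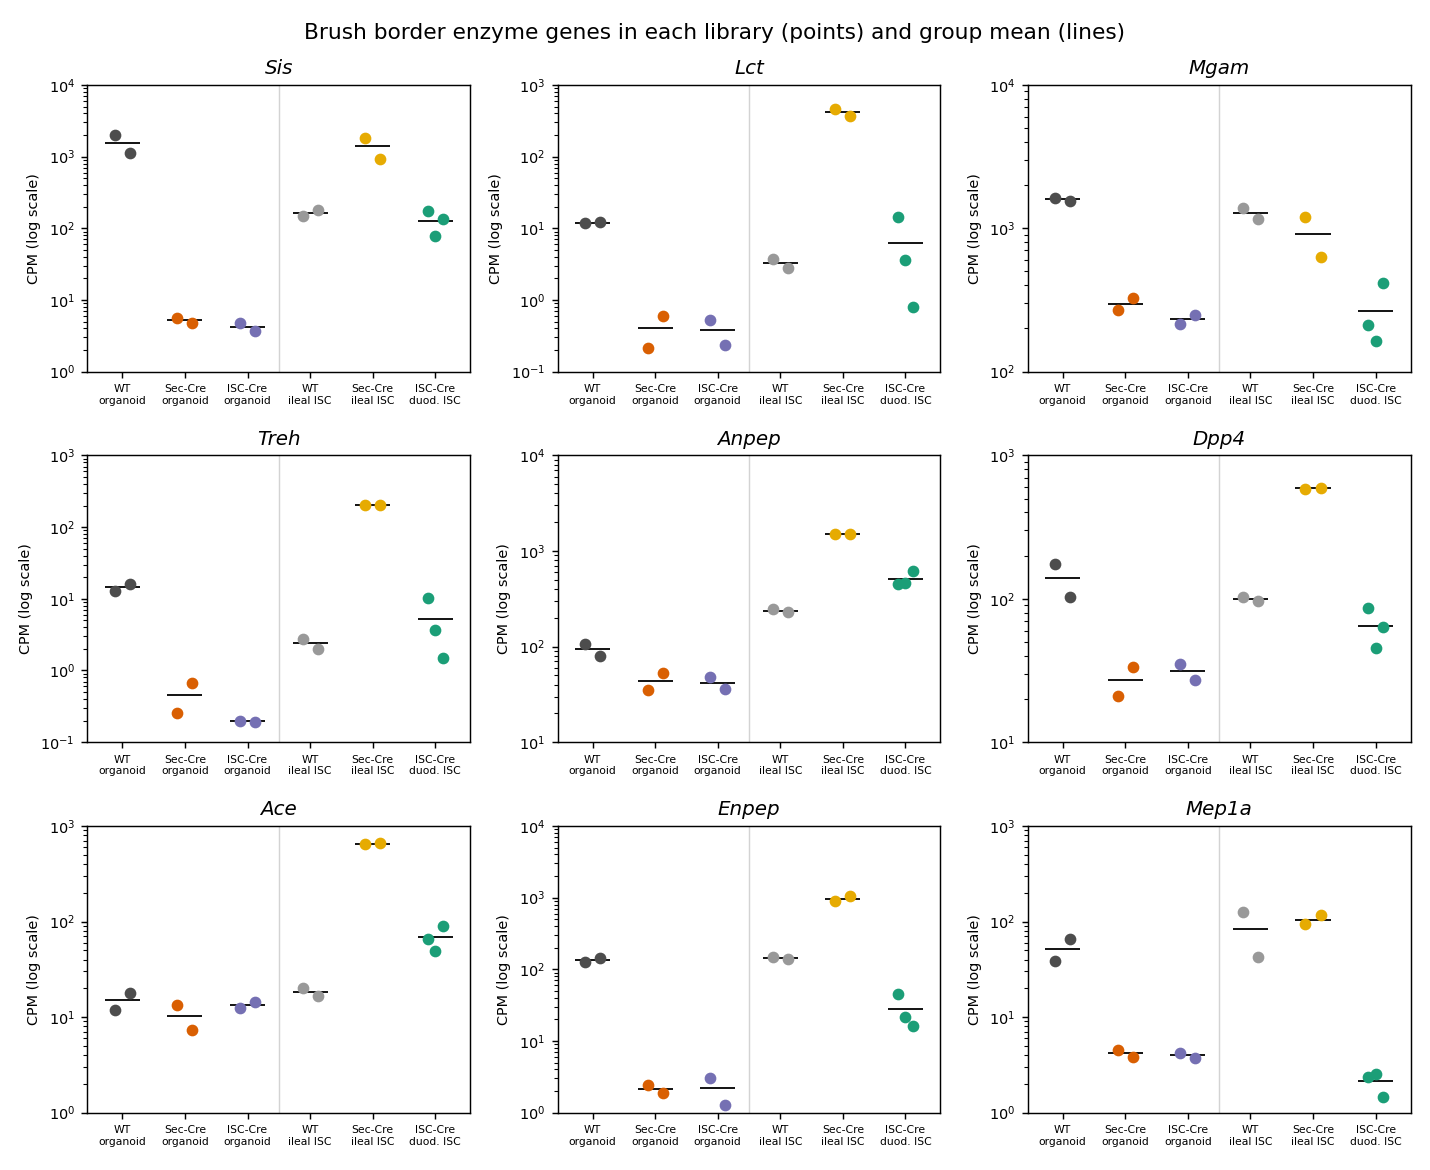
CPM of each of the 9 genes (log axis, one panel per gene) in the 6 groups; points are single libraries and lines are group means. In the organoid columns, Sis drops from 1124 to 1991 CPM in WT to 3.71 to 5.53 CPM in the Apc-null libraries. Ace stays between 7.30 and 17.9 CPM in all organoids. Among the ileal ISC columns, on this TMM scale, Lct is at 364 to 464 CPM with Sec-Cre and 2.84 to 3.72 CPM in WT. Mgam overlaps there, at 626 to 1193 CPM with Sec-Cre and 1161 to 1385 CPM in WT.

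Counted together, 8 of the 9 genes fell in Sec-Cre organoids and none rose, where 33.0% of all 14208 tested genes were called and 16.7% were called higher and 16.3% lower. In ISC-Cre organoids 8 of 9 fell and none rose, against 37.8% called, 19.3% higher and 18.5% lower, over all genes. The median log2 change of the 9 genes was -3.68 in Sec-Cre and -3.73 in ISC-Cre organoids, against medians over all tested genes of 0.05 and 0.03. Both comparisons share the 2 WT libraries and so are not separate tests of the WT level. With unscaled library totals, all genes shifted by 0.17 and 0.21, the share of calls that were higher went from 50.5% to 64.6% and from 51.1% to 66.5%, and the count of these enzymes called remained 8 in each comparison.

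Between the 2 Apc-null organoid groups, none of the 9 genes differed by the test, and 6 of 14208 genes did (0.0422%). For Mgam the log2 level in the Sec-Cre group was 0.34 ± 0.14 above that of the ISC-Cre group (edgeR adjusted p = 0.984). DESeq2 called 71 genes and 0 of the 9. Treh had the widest uncertain difference (1.21 ± 0.61, edgeR adjusted p = 1), resting on 23 against 9 counts; with only these 2 groups in the fit, 8 of the 9 genes passed the low-count filter and Treh did not. Differences for the other 7 genes lay between -0.40 ± 0.34 (Ace) and 0.27 ± 0.32 (Sis). A difference that misses the threshold with 2 libraries a group does not show that the drivers act alike.

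**Figure D2:**
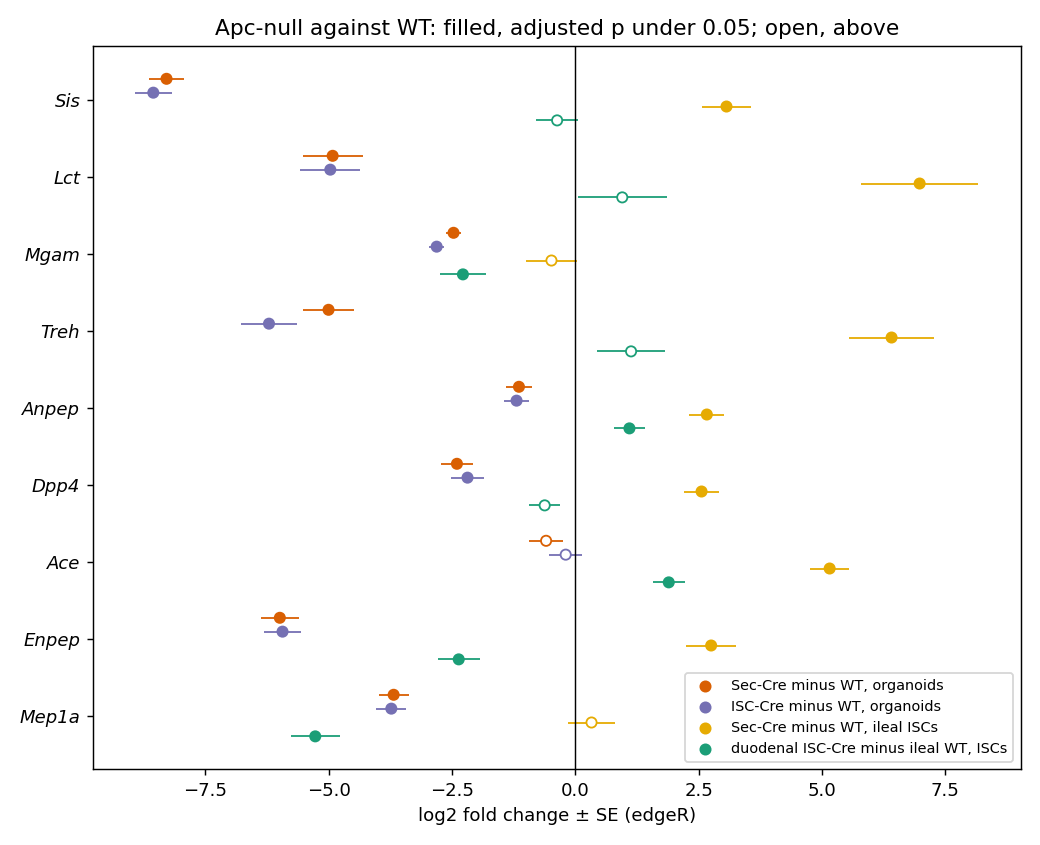
Log2 fold change of each gene with its SE (horizontal bars) in 4 comparisons of an Apc-null group with a WT group, on a linear axis; filled points have an edgeR adjusted p under 0.05. Both organoid comparisons lie left of 0, from -8.56 for Sis to -0.19 for Ace, while in ileal ISCs the Sec-Cre values run from -0.48 for Mgam to 6.98 for Lct.

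The sequence just upstream of the start site differs in kind among these genes, and it is shown for the gene that fell most (Sis), its partner in starch digestion that fell less (Mgam), the gene with the smallest called fall (Anpep) and the gene that was not called in organoids (Ace). The windows are the 250 bases before the annotated start, from RefSeq on GRCm38.p6, on the strand of the gene. Capitals mark matches, on either strand, to 6 short motifs known for factors HNF1, CDX, GATA, HNF4 and TCF/LEF and for the TATA box, spelled out after the sequences.
Sis, chr3:72967864-72968113, minus strand: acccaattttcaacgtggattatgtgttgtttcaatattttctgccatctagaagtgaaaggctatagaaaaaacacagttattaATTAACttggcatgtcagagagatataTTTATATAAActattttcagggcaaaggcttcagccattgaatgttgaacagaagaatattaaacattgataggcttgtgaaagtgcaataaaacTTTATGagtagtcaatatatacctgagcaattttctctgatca
Mgam, chr6:40628581-40628830, plus strand: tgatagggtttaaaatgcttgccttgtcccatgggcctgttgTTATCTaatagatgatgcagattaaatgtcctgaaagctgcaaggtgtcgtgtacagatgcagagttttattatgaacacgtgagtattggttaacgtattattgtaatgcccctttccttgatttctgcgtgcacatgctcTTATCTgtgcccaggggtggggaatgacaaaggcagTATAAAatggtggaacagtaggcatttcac
Anpep, chr7:79848211-79848460, minus strand: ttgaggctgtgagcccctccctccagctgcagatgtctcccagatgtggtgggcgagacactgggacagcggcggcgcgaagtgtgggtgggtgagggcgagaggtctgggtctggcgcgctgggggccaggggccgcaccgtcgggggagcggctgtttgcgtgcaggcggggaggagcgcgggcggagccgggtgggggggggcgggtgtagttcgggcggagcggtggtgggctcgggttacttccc
Ace, chr11:105967698-105967947, plus strand: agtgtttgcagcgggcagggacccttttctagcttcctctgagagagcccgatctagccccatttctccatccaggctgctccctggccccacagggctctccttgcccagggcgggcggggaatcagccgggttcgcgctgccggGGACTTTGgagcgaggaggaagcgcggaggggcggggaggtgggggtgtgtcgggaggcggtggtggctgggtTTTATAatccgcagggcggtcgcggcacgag
The Sis window had the HNF1 motif, the CDX motif and 2 overlapping TATA box matches, Mgam had 2 GATA motifs and a TATA box match 30 bases before the start, Ace had the HNF4 motif and a TATA box match, and Anpep had none of the 6. GC content was 31.6% for Sis, 42.4% for Mgam, 67.2% for Ace and 72.8% for Anpep, against a median of 52.4% over 32851 windows of this length. For the genes not shown it was 41.6% (Mep1a), 42.8% (Lct), 43.6% (Dpp4), 52.4% (Enpep) and 53.2% (Treh). Whether GC content goes with the size of the fall was not tested. Ace has an additional RefSeq window farther into the gene, and the annotated GENCODE start of Anpep lies upstream of the window shown. GENCODE lists 4 coding transcripts of Anpep, so its window need not lie before the start in use. Which start these libraries used was not tested for any gene. All 9 genes had a window. The HNF1 motif, searched as GTTAAT, occurred in 1 of the 10 windows of these genes, that of Sis, and in 6.43% of all windows. The CDX motif, TTTATG, was in 2 windows (Lct and Sis) and 10.8% of all. The GATA motif, AGATAA, was in 3 windows (Lct, Dpp4 and Mgam) and 9.99% of all. The HNF4 motif, CAAAGTCC, was in 2 windows (Treh and Ace) and 1.20% of all. The TCF/LEF motif, CTTTGAT, was in 1 window (Mep1a) and 3.205% of all. The TATA box letters, TATAAA, were in 5 windows (Dpp4, Sis, Enpep, Mgam and Ace) and 12.4% of all. A match is a description of letters and not evidence of binding.

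Most tested genes of 3 lists that hold none of the 9, other brush border hydrolases, microvillus structure and enterocyte markers, fell with them in organoids. Of 14 other brush border hydrolases 12 were tested, and 11 fell in both Apc-null groups, with Akp3, an intestinal alkaline phosphatase, not called. Alpi, the other intestinal alkaline phosphatase, changed by -8.21 ± 0.48 in Sec-Cre and -9.97 ± 0.57 in ISC-Cre organoids (log2, edgeR adjusted p = 5.25e-05 and 4.03e-05). Dpep1, a membrane dipeptidase, changed by -8.93 ± 0.64 and -8.44 ± 0.62, and Mep1b, the partner subunit of Mep1a in meprin, by -3.46 ± 0.25 and -3.25 ± 0.25, all called. Of 16 genes of microvillus structure, 11 fell in Sec-Cre and 12 in ISC-Cre organoids. Myo1a, the motor that links the microvillus core to the membrane, changed by -2.78 ± 0.12 and -3.09 ± 0.12. All 12 enterocyte markers fell in both groups, and their summed level was 1318 to 1833 CPM in WT and 72.8 to 95.7 CPM in the 4 Apc-null libraries. Summed markers of goblet cells also went from 3860 and 4173 CPM in WT to between 355 and 564.55 CPM. For these lists, the shares of all genes called were 33.0% in Sec-Cre and 37.8% in ISC-Cre organoids. Of 6 stem cell markers, 2 rose and 1 fell in Sec-Cre organoids, and 2 rose and 3 fell in ISC-Cre organoids. Their summed level was 2513 and 5970 CPM in WT and 1532 to 2067 CPM in the 4 Apc-null libraries. Whether the makeup of cell types accounts for the enzyme changes was not tested.

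Of 12 lysosomal, cytosolic or endoplasmic reticulum enzymes related to the 9 by family or activity, 4 fell and 1 rose in each Apc-null organoid group, and their summed level was 1551 to 1564 CPM in WT and 1348 to 1445 CPM in Apc-null organoids. The calls over all genes were 33.0% in Sec-Cre and 37.8% in ISC-Cre organoids. Glb1, the lysosomal beta-galactosidase, changed by -1.31 ± 0.16 and -1.21 ± 0.16 on the log2 scale, Gaa, the lysosomal alpha-glucosidase, by -0.78 ± 0.21 and -0.65 ± 0.21, and the cytosolic prolyl oligopeptidase Prep by 0.47 ± 0.15 and 0.60 ± 0.15, all called by edgeR. Among 13 regulators of enterocyte genes, 6 fell and 1 rose in Sec-Cre organoids, and 9 fell and 1 rose in ISC-Cre organoids. Hnf4a and Hnf4g, nuclear receptors known to drive brush border genes, changed by -1.57 ± 0.12 and -1.84 ± 0.17 in Sec-Cre organoids and by -1.94 ± 0.12 and -2.26 ± 0.17 in ISC-Cre organoids. Creb3l3, a membrane-bound factor of lipid metabolism, changed most among the regulators named here (-7.32 ± 0.40 and -7.03 ± 0.39). Prdm1 (Blimp1), a repressor known from the fetal and suckling intestine, was the gene that rose (3.41 ± 0.46 and 3.00 ± 0.45).

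**Figure D3:**
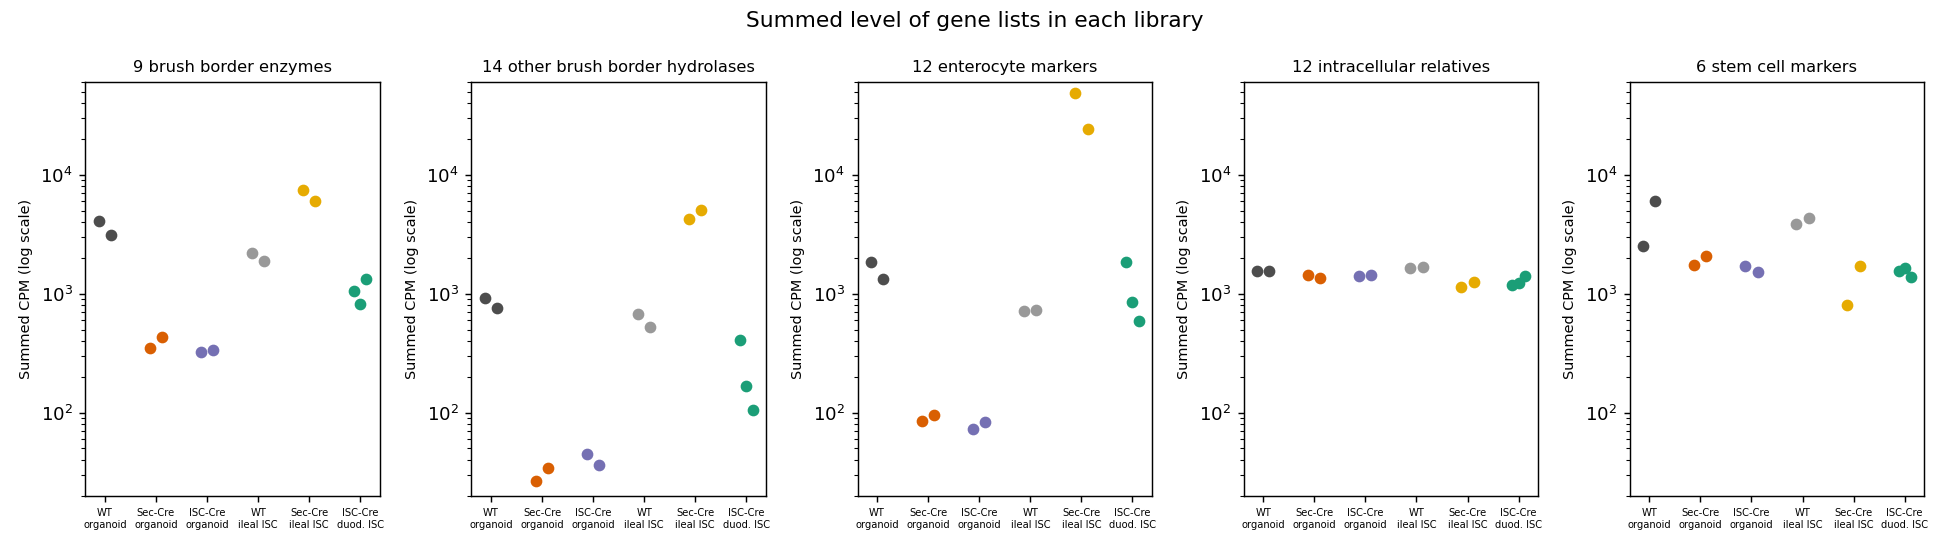
Summed CPM (log axis) of gene lists in the 6 groups; points are single libraries. The other brush border hydrolases follow the 9 enzymes, from 752 to 918 CPM in WT organoids to 26.8 to 45.1 CPM in the Apc-null organoids and 4214 to 5045 CPM in Sec-Cre ileal ISCs, while the intracellular relatives stay between 1148 and 1677 CPM in all 13 libraries.

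In sorted ileal ISCs the Sec-Cre libraries held more, not less, of most of these enzymes: 7 of the 9 rose and none fell, where 16.6% of 14577 tested genes were called and 9.62% were called higher and 6.96% lower. The median log2 change of the 9 was 2.76, against 0 over all genes. Lct, Treh and Ace, the lowest of the 9 in WT ileal ISCs (in CPM and in CPM per kb of transcript), had the largest changes. Lct was at 464 and 364 CPM in Sec-Cre and 3.72 and 2.84 CPM in WT ISCs. Treh was at 200.4 and 205 CPM against 2.79 and 1.98 CPM. Ace was at 651 and 658 CPM against 20.1 and 16.5 CPM. No library of one group came near the other for any of these genes. Their log2 changes were 6.98 ± 1.19 for Lct (edgeR adjusted p = 0.00801), 6.42 ± 0.87 for Treh (0.00416) and 5.16 ± 0.40 for Ace (0.0013), which means group means 126-, 85.2- and 35.7-fold apart.

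The remaining called genes rose by similar amounts. Sis was at 1843 and 926 CPM in Sec-Cre and 150 and 180 CPM in WT ISCs. Both Sec-Cre libraries were above WT. The log2 change was 3.07 ± 0.51 (edgeR adjusted p = 0.00715). Anpep was at 1507 and 1519 CPM against 245 and 231 CPM, Dpp4 at 585 and 595 CPM against 103 and 97.2 CPM, and Enpep at 894 and 1039 CPM against 148 and 138 CPM. In each of these peptidases both Sec-Cre libraries were above both WT libraries. How close the Sec-Cre replicates lie depends on the TMM factor of replicate 1: with unscaled totals they were at 531 and 1329.5 CPM for Anpep, 206 and 521 CPM for Dpp4, and 315 and 909.76 CPM for Enpep, against 649.67 and 810.3 CPM for Sis. Their log2 changes were 2.67 ± 0.35, 2.56 ± 0.36 and 2.76 ± 0.50 (edgeR adjusted p = 0.00401, 0.00457 and 0.00985).

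Mgam and Mep1a were not called. Mgam was at 1193 and 626 CPM in Sec-Cre and 1385 and 1161 CPM in WT ISCs, with overlapping groups (log2 -0.48 ± 0.51, edgeR adjusted p = 0.546). Mep1a was at 93.8 and 116 CPM in Sec-Cre ISCs, between the WT libraries at 125 and 42.2 CPM (log2 0.33 ± 0.48, edgeR adjusted p = 0.670). The sign for Mep1a turned to -0.38 with unscaled library totals and to -0.25 without WT replicate 2.

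These ileal calls rest on few libraries. Without Sec-Cre replicate 1, the library that stands apart, 7 of the 9 were still called, with log2 changes of 2.46 for Sis, 6.77 for Lct and 5.14 for Ace, and 7 were also called without replicate 2. Without WT replicate 1 the test called 2 (Treh and Ace) with 272 genes called in all, and without WT replicate 2 it called 1 (Ace) with 153 in all. The log2 changes themselves moved little: without WT replicate 1 they were 2.93 for Sis, 7.18 for Lct, 2.70 for Anpep, 2.59 for Dpp4 and 2.80 for Enpep, and without WT replicate 2 they were 3.21, 6.80, 2.63, 2.53 and 2.71. With unscaled library totals 4 were called: Sis (2.07), Lct (6.14), Treh (5.65) and Ace (4.39). Anpep (1.90, edgeR adjusted p = 0.0521), Dpp4 (1.80, 0.0703) and Enpep (2.03, 0.0761) then missed the threshold. That scaling shifted the median of all genes by -0.71 and took the share of calls that were higher from 58.0% to 21.9%.

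Markers of other cells differed between these sorted groups. All 12 enterocyte markers rose in Sec-Cre ileal ISCs, and their summed level was 48501 and 24370 CPM, against 717 and 731 CPM in WT. Apoa1, an apolipoprotein of absorptive cells, changed by 8.24 ± 1.08 on the log2 scale and Krt20, a keratin of mature cells, by 1.83 ± 0.39 (edgeR adjusted p = 0.0039 and 0.0169). Of 6 stem cell markers tested, none was called higher, 1 was called lower and 5 were not called. The stem cell marker Lgr5 was at 51.9 to 69.4 CPM in Sec-Cre and 61.4 to 97.7 CPM in WT ISCs. Olfm4, another stem cell marker, was at 302 to 1258 CPM against 3005 to 3607 CPM. Paneth cell markers took 24.3% of gene counts in Sec-Cre replicate 1 and 0.824% in replicate 2, against 1.83% to 2.13% in WT, and 1 of the 7 was called. Of the other brush border hydrolases 12 of 13 tested rose, with Alpi at 5.58 ± 0.66 and Mep1b at 3.28 ± 0.47. Of the 16 microvillus genes 8 rose, and of the 13 enterocyte regulators 5 rose, including Creb3l3 (9.64 ± 0.87) and Hnf4g (1.69 ± 0.36). Hnf4a was not called (-1.26 ± 0.39, edgeR adjusted p = 0.0591). Among the 12 intracellular relatives none rose and 2 fell, Ganab, the glucosidase II subunit that trims glycans (-1.02 ± 0.28), and the cytosolic peptidase Dpp8 (-1.67 ± 0.29). Over all genes in this comparison, 16.6% were called, a share close to that of these relatives. The part that enterocytes within the sorted fraction play in the enzyme levels was not tested.

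The 3 duodenal ISC-Cre libraries were compared with the ileal WT libraries, with the differences in design given above. In this comparison 2 of the 9 enzymes were higher and 3 lower, where 19.1% of genes were called, 10.2% higher and 8.84% lower. Mep1a was at 2.39, 2.53 and 1.47 CPM, below every ileal library, with a log2 change of -5.27 ± 0.49 against WT (edgeR adjusted p = 0.000583). Enpep was at 45.4, 21.5 and 16.1 CPM, all under the ileal WT values (-2.36 ± 0.43, edgeR adjusted p = 0.00709). Mgam, at 212, 165 and 412 CPM, was also below WT (-2.28 ± 0.46, edgeR adjusted p = 0.0116). Ace and Anpep were the 2 that were higher. Ace was at 65.8, 49.0 and 89.8 CPM, above ileal WT (1.90 ± 0.33, edgeR adjusted p = 0.00576). Anpep was at 452, 458 and 618 CPM (1.10 ± 0.32, edgeR adjusted p = 0.0424), and its call was lost when any 1 of the 5 libraries was left out, with adjusted p from 0.057 to 0.301. Without either WT library 2 enzymes were called, Enpep and Mep1a.

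Sis, Lct, Treh and Dpp4 were not called in the duodenal comparison with WT. Sis was at 172, 78.4 and 134 CPM (log2 -0.37 ± 0.42), around the ileal WT values. Dpp4 was at 86.5, 45.1 and 63.2 CPM (-0.62 ± 0.31). Lct and Treh varied widely among the duodenal libraries, at 14.3, 3.63 and 0.804 CPM and at 10.3, 3.63 and 1.51 CPM, and replicate 1 was the highest for both. Their log2 changes were 0.95 ± 0.90 and 1.13 ± 0.68, and that of Lct turned to -0.52 without replicate 1. Of the 6 stem cell markers, 2 were called higher than in ileal WT, 1 lower and 3 not called. Lgr5 was at 222 to 248 CPM and Olfm4 at 70.0 to 102 CPM in the duodenal libraries. Summed enterocyte markers had the same order over the 3 libraries as Lct and Treh, at 1862, 855 and 584 CPM. Enpep had that order too, but Sis, Mgam, Anpep, Dpp4, Ace and Mep1a did not. The part of enterocytes in these levels was not tested.

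Markers of endothelial cells, which also make Ace, summed to 76.3, 71.5 and 146 CPM in the duodenal and 0.557 and 1.11 CPM in the ileal WT libraries. Nearly all of that came from Cdh5, at 63.4 to 140 CPM. The other defining markers were near 0: Pecam1 at 0.355 to 0.549 CPM, Kdr at up to 0.0323 CPM and Emcn at up to 0.0305 CPM, with Tek at 5.15 to 7.60 CPM. Cdh5 was also at 7.30 to 23.1 CPM in Apc-null organoids and had no count in WT organoids. Stromal markers summed to 23.2, 65.6 and 25.3 CPM in the duodenal and 4.27 and 6.63 CPM in the ileal WT libraries. Their part in the Ace level was not tested.

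Against Sec-Cre ileal ISCs, the other Apc-null sorted group, all 9 enzymes were lower in the duodenal libraries, where 40.8% of genes were called and 19.8% called lower. The median log2 difference was -3.43, against 0.12 over all genes. Lct (-6.03 ± 0.95), Mep1a (-5.60 ± 0.50), Treh (-5.28 ± 0.68) and Enpep (-5.12 ± 0.47) differed most, and Anpep (-1.57 ± 0.30) and Mgam (-1.80 ± 0.46) least. With unscaled library totals 7 were called, Mgam (-0.75, edgeR adjusted p = 0.243) and Anpep (-0.70, 0.286) being lost, and the share of calls that were higher went from 51.4% to 81.0%. The Mgam call was also lost without Sec-Cre replicate 1 (edgeR adjusted p = 0.0673) and without duodenal replicate 1 or 2 (0.0535 for each).

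Without Apc loss, WT organoids and WT ileal ISCs differed in 2 of the 9 enzymes, 1 higher and 1 lower, where 3.87% of 15208 genes were called. Sis was higher in organoids by 3.24 ± 0.45 on the log2 scale (edgeR adjusted p = 0.00227). Anpep was lower by the test (-1.35 ± 0.29, edgeR adjusted p = 0.0216), a call lost when any 1 of the 4 libraries was left out (0.0843 to 0.166). Treh, at 13.01 and 16.1 CPM in organoids and 2.79 and 1.98 CPM in ISCs, lay at the threshold (2.62 ± 0.67, edgeR adjusted p = 0.051). Mgam (0.32 ± 0.41), Enpep (-0.10 ± 0.43) and Ace (-0.29 ± 0.34) were not called. Nor were Lct (1.87 ± 0.85, edgeR adjusted p = 0.303), Dpp4 (0.47 ± 0.34) and Mep1a (-0.69 ± 0.44). Lct was nonetheless at 11.7 and 12.2 CPM in organoids and 3.72 and 2.84 CPM in ISCs, without overlap.

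The Sec-Cre effects in organoids and in ileal ISCs were compared directly, as the difference between them over all 13 libraries. That tests whether the effects differ, not whether their directions are opposite: Mgam was negative in both settings, Ace was not called in organoids and Mep1a was not called in ISCs. All 9 enzymes had a lower effect in organoids, where 26.4% of 15208 genes were called, 1974 of them lower. The differences ran from -11.85 ± 1.44 for Lct, -11.37 ± 1.08 for Treh and -11.30 ± 0.72 for Sis to -1.93 ± 0.59 for Mgam (edgeR adjusted p = 0.0306). For Mgam the call was lost in 7 of 8 fits that left out 1 library (edgeR adjusted p = 0.0636 to 0.113) and with unscaled totals (-0.84, 0.274). For Ace the Sec-Cre change was -0.59 ± 0.34 in organoids, not called, and 5.16 ± 0.40 in ISCs, with a difference of -5.70 ± 0.51 (edgeR adjusted p = 1.72e-05). Setting is confounded with the WT genotype, the time after induction and whole culture against sorted cells.

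The makeup of the family also shifted between groups. To compare genes, CPM was divided by the length of the longest coding transcript in kb, and each gene is given as a percent of the summed CPM per kb of the 9. Mgam made up 67.3% to 68.2% in Sec-Cre and 57.1% to 66.0% in ISC-Cre organoids, against 35.8% to 44.5% in WT organoids. Sis was the counterpart, at 1.08% to 1.53% and 1.07% to 1.36% in the Apc-null organoids and 35.1% to 47.8% in WT organoids. In WT ileal ISCs Mgam was again the leading enzyme, at 52.6% in both libraries, whereas in Sec-Cre ileal ISCs it was at 7.17% to 11.8%. Anpep led in both Apc-null sorted groups, at 25.6% to 29.7% in Sec-Cre ileal ISCs and 51.9% to 64.8% in the duodenal libraries. These shares come from levels already described and carry no test of their own.

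Ratios of counts within a library do not depend on the scaling between libraries. There were 0.723 to 1.224 Sis counts for each Mgam count in WT organoids and 0.0147 to 0.0218 in the 4 Apc-null organoid libraries. In ISCs the ratio was 1.48 to 1.54 in Sec-Cre ileal, 0.109 to 0.155 in WT ileal and 0.326 to 0.810 in duodenal libraries. The ranges of Apc-null and WT did not overlap in organoids or in ileal ISCs, and the ratio moved down in Apc-null organoids and up in Sec-Cre ileal ISCs. Anpep counts per Enpep count were 0.560 to 0.861 in WT organoids, 14.5 to 27.7 in Apc-null organoids, 1.46 to 1.69 in Sec-Cre ileal, 1.66 to 1.67 in WT ileal and 9.98 to 38.3 in duodenal ISCs. The Apc-null organoids and the duodenal ISCs thus shared a high ratio. Both ileal ISC groups had a low one, and WT organoids the lowest. The Apc-null organoid ratios rest on 27 to 77 Enpep counts a library.

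**Figure D4:**
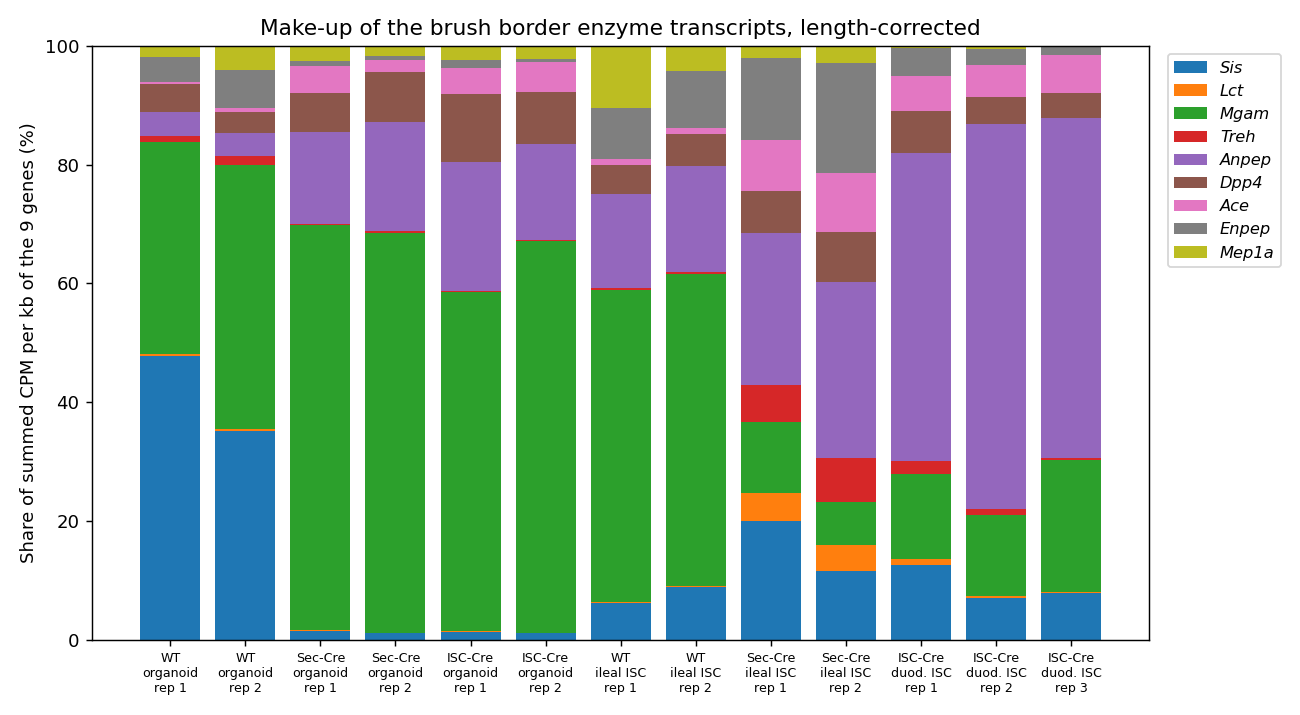
Percent of the summed CPM per kb of the 9 genes taken by each gene, one stacked bar per library from 0 to 100. Mgam takes 57.1% to 68.2% of the Apc-null organoid bars, Sis 35.1% to 47.8% of the WT organoid bars, and Anpep 51.9% to 64.8% of the duodenal bars.

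Ordered by mean TMM-scaled CPM over the 6 groups, Sec-Cre ileal ISCs ranked first for 7 of the 9 genes, all but Sis and Mgam. The share of all genes for which this group came first was not computed. For Mep1a the Sec-Cre range overlapped that of WT ileal ISCs. With unscaled totals WT ileal ISCs came first for Mep1a, at 129.65 and 44.8 CPM against 33.1 and 101 CPM. WT organoids ranked first for Sis (mean 1558 CPM, overlapping Sec-Cre ileal ISCs at 1384 CPM) and for Mgam (1591 CPM, above WT ileal ISCs at 1273 CPM). An Apc-null organoid group ranked last for every gene but Mep1a, for which the duodenal ISCs were lowest at a mean of 2.13 CPM. The 2 Apc-null organoid groups were neighbours in the order for every gene but Mgam. The shares of all genes with such a last place or such neighbours were not computed either. Duodenal ISCs ranked second for Anpep and Ace, with no overlap with either neighbour in scaled CPM. With unscaled totals the Anpep ranges of duodenal ISCs (549 to 606 CPM) and Sec-Cre ileal ISCs (531 to 1329.5 CPM) overlapped.

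Across the 13 libraries, the pattern of Lct was most like that of Treh (Pearson r of log2 CPM 0.991), the closest pair within the family, and Mgam and Ace were the least alike (0.106). Over all genes, those nearest to Sis included AI747448 and Mttp, which loads lipid onto lipoproteins (0.980 and 0.977). Nearest to Mgam were Nr3c1, the glucocorticoid receptor, and Myo1d (0.971 and 0.965), and nearest to Enpep were Btnl1, a butyrophilin-like protein of the epithelium, and Mertk (0.997 and 0.991). Nearest to Anpep was Akr1b7 (0.969), to Dpp4 Apol7a (0.983), to Ace Itm2b (0.975) and to Mep1a Otc, a urea cycle enzyme (0.982). These coefficients describe libraries that share groups, depth and scaling, and no test is attached to them.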

How the data were processed

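Poly(A) RNA from 13 mouse samples in 6 groups was sequenced with a non-directional kit, per the labels' protocols. The counts of the duodenal libraries are stranded, a conflict with that label that could not be settled here. The deposited tables hold whole-number counts per gene, made by the authors with STAR on mm10, per the submitters' processing notes, which also name DESeq2 1.22.2. The STAR version and annotation release are not given in the sources used here. The count over both strands was used, since 10 libraries are unstranded. The 4 summary lines stayed out of library sizes, and 4575 of 24054 genes had no count.

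Genes with few counts were left out (filterByExpr, minimum count 10), and all 9 enzymes passed in the 3 fits reported. Treh did not pass in the alternative fit of the Apc-null organoids alone. The remaining counts were tested with edgeR 4.0.16 (R 4.3.3) by the quasi-likelihood test with TMM scaling. P-values were adjusted over all genes of a fit by Benjamini-Hochberg at 0.05. Organoids and ISCs were fitted apart, and comparisons across them in 1 fit of all 13 libraries. SE is the log2 change divided by the root of F. The scripts were tested on simulated data. The alternatives were DESeq2 1.42.0, other scaling, no filter, fits of only the compared groups, second-strand counts, Paneth genes with Rn45s and Lars2 left out, a replicate block and each library left out. Unscaled totals and a crossed block were chosen after seeing the data.

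The 9 genes and all lists were chosen with earlier results of these data known. List genes named were at most 4 a list, those with the smallest adjusted p in Sec-Cre organoids against WT; Akp3, Ganab, Dpp8, Lgr5, Olfm4 and the endothelial genes were named after their values were seen. Likeness is Pearson's r of log2(CPM + 0.5).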

Additional observations from a re-analysis of the deposited data

Results flagged for a closer look

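Each of the 9 enzymes had a Sec-Cre effect that differed between organoids and ileal ISCs by a direct test (edgeR, all 13 libraries). The difference, organoid effect minus ISC effect on the log2 scale, was -11.30 for Sis, -11.85 for Lct, -1.93 for Mgam, -11.37 for Treh, -3.76 for Anpep, -4.91 for Dpp4, -5.70 for Ace, -8.70 for Enpep and -3.96 for Mep1a. The edgeR adjusted p ranged from 3.01e-06 for Sis to 0.0306 for Mgam, and 26.4% of all genes tested were called. Mgam lost its call in 7 of 8 fits without 1 library.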

How the results depend on the processing

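Over 926 values of the 9 genes under alternatives, 857 kept direction and side of the threshold, 47 lost the call, 5 gained it and 17 turned direction. With unscaled totals, the ileal Sec-Cre count went from 7 to 4 enzymes (2417 to 1365 genes), duodenal against WT ileal from 2783 to 1555 genes, and WT organoids against WT ISCs from 2 to 1 enzymes (589 to 282 genes). Ace in ISC-Cre organoids turned to 0.015, and Mep1a in ileal Sec-Cre ISCs to -0.38. Unnormalized CPM gave summed levels of 391 in ISC-Cre organoids (329.82 with TMM) and 3957 in Sec-Cre ileal ISCs (6740 with TMM). DESeq2 called 71 genes between Apc-null organoids (edgeR 6), 3790 in ileal ISCs and 1188 between the WT groups. Fits of only the groups compared called 11, 1336 and 1026 genes in the same 3 comparisons, and 4 enzymes between the WT groups. No filter gave 24 genes between Apc-null organoids. Second-strand counts turned Enpep there to 0.18. The cause was not tested in these cases.

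Leaving out 1 library at a time, the enzymes called numbered 7 to 8 in Sec-Cre organoids (2608 to 5101 genes), 7 to 8 in ISC-Cre organoids (3194 to 5542), 0 between them (0 to 5), 1 to 7 in ileal Sec-Cre ISCs (153 to 3183), 2 to 4 in duodenal against WT ISCs (937 to 2226), 8 to 9 against Sec-Cre ISCs (4091 to 5909), 1 between the WT groups (162 to 355) and 8 to 9 for the difference of effects (2513 to 4888). Values whose direction turned in such fits ranged from -0.45 to 0.12 for Ace in ISC-Cre organoids, -0.25 to 1.30 for Mep1a in ileal Sec-Cre ISCs, -0.52 to 1.47 for Lct in duodenal against WT ISCs and -1.27 to 0.30 for Mep1a between the WT groups. Between the Apc-null organoids, where none of the 9 was called, they ranged from -0.87 to 0.75 for Lct, -0.26 to 0.31 for Anpep, -0.59 to 0.084 for Dpp4, -0.54 to 0.76 for Enpep and -0.060 to 0.17 for Mep1a. An arm left with 1 library borrows its spread from the other groups.

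Same-numbered samples did not deviate together (r from -0.106 to 0.0755), which gave no sign of pairing. In groups of 2 libraries the deviations mirror each other, so this check is weak. Whether same-numbered samples share a mouse, culture or day was not tested. With a replicate block the enzymes called were 8 in each organoid comparison with WT (4049 and 4723 genes), 7 in ileal ISCs (2464), 4 in duodenal against WT ISCs (1671 genes, 2783 without the block) and 3 between the WT groups (623). With the ISC-Cre organoid numbers crossed, the block gave 8 enzymes and 5227 genes.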
